A study of Caenorhabditis elegans with 2 samples.

Results

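The mitochondrial ribosomal protein genes of Caenorhabditis elegans are here the protein-coding genes whose symbol begins with mrpl- (large subunit) or mrps- (small subunit). They were chosen by symbol alone in the Ensembl WBcel235 annotation, and number 70 of 19973 protein-coding genes on the nuclear chromosomes: 41 mrpl genes and 29 mrps genes. LIN-39, a Hox transcription factor of the worm's mid-body, was profiled by chromatin immunoprecipitation and sequencing (ChIP-seq) in whole, mixed-sex L1 larvae, the first larval stage. There was 1 group with 2 biological replicates and no second condition. All animals were of strain OP18, genotype unc-119(ed3) III with wgIs18, a transgene insertion from which LIN-39 is made as an eGFP fusion. Binding is therefore that of the tagged protein in a single transgenic line. Whole larvae were used, so no value belongs to a particular cell type, and fewer bound cells cannot be told apart from weaker binding per cell.

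Mitochondria carry their own ribosomes, which translate the few inner-membrane proteins of the respiratory chain encoded by mitochondrial DNA. All protein subunits of these ribosomes are encoded in the nucleus and imported. Some subunits have bacterial counterparts and others were added during mitochondrial evolution. In C. elegans many housekeeping genes are transcribed in operons, where downstream genes often, but not always, have no promoter of their own beside their start.

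Of the 70 genes, 20 had the summit of a reproducible (optimal) peak from 2000 bp upstream to 500 bp downstream of the gene start, which is 28.6% of the family against 8.28% of all protein-coding genes counted in the same way. The large subunit had 13 of 41 (31.7%) and the small subunit had 7 of 29 (24.1%). A further 42 genes had only a weaker region, 4 had a region in a replicate list but not in the pooled list, and 4 had no region in any list. The strongest peaks were those of mrpl-28, mrps-7, mrpl-12 and mrpl-55. The counts describe the family, and no test of it against other genes is given, since there is no contrast between groups and the family was chosen with results of these data known.

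Peaks came as 4 lists on the ce11 build: 1488 optimal peaks for both replicates together, and 30000 ranked regions each for both together (pooled), for replicate 1 and for replicate 2. The signal of a region is the submitters' score for regions called against a control, which was not analysed here, and its scale is not stated. Its rank is the place in its own list, with 1 the strongest. Signals run from 13.4 to 607.5 in the pooled list, from 9.06 to 387.8 in replicate 1 and from 5.86 to 231.3 in replicate 2, so signals are compared within a list only. The lists hold no read numbers, so the depth is unknown.

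The summits of the strongest family peaks are shown first, because they give the sequence on which the binding centred. Each run is 60 bases to either side of the optimal summit, which is base 61, on the strand of the gene, 5' to 3', from the WBcel235 genome. Only summits with no annotated exon in that stretch are shown. Capitals mark matches to the short sequences discussed below. They are the 6 strongest peaks of the family, at II:156043-156163, IV:14767834-14767954, III:10707198-10707318, IV:443807-443927, V:12728430-12728550 and III:1202279-1202399, and the mrps-16 peak at II:5474101-5474221, shown because it shares a stretch with mrpl-28 and mrpl-45.
mrpl-28: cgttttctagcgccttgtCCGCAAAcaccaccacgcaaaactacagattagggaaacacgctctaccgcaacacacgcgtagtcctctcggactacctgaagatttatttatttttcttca
mrps-7: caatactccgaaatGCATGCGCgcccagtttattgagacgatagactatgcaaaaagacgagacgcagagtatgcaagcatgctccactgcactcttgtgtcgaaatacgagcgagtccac
mrpl-12: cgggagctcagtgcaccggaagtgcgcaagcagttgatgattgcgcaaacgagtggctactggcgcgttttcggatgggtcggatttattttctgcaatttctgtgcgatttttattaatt
mrpl-55: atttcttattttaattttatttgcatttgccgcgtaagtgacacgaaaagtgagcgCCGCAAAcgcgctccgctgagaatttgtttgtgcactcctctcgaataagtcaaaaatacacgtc
mrpl-49: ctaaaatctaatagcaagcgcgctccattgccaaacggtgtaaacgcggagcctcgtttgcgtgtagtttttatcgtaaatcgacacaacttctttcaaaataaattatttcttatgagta
mrpl-45: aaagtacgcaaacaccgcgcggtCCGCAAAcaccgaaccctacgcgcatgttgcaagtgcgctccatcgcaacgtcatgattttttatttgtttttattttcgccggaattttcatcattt
mrps-16: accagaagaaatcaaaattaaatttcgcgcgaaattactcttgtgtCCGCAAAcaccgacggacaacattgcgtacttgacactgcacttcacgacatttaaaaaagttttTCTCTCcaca

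Sequences known to be bound by Hox proteins were found within 100 bp of few of the family's summits. The composite site of Hox proteins with PBC cofactors, TGATNNAT, was found on either strand within 100 bp of 2 of 20 summits (10%), those of mrps-7 and mrps-25, against 17% of all 1488 optimal summits and 16.3% of windows of the same length centred 100 bp upstream of every protein-coding start. Within 50 bp it was at none of the 20 summits, against 9.95% of all optimal summits, and within 200 bp it was at 5 (25%), against 29.7%. The homeodomain core TAATTA was within 100 bp at mrps-25 only, 1 of 20 (5.0%), against 7.8% of all optimal summits and 11.9% of start windows. Within 200 bp the order turned, with TAATTA at 5 of 20 (25%), against 19.6% of all optimal summits. GA-rich GAGAGA was at 5 of 20 (25%), against 36.6% and 16.3%. A core of the mammalian NRF-1 site, GCGCATGC, was at mrps-7 alone, against 0.739% of all optimal summits, and the YY1 core AAGATGGC was at none, against 0.202%. With 20 windows, 1 window is 5.0%.

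The sequence CCGCAAA, capitalised above, was picked out after the summit sequences had been seen, so its counts are a description only. It lay within 100 bp of 7 of 20 summits (35%), against 5.04% of all optimal summits and 2.3% of start windows. The 7 were mrpl-15, mrpl-28, mrpl-45, mrpl-55, mrps-16, mrps-25 and mrps-28. In windows centred 100 bp upstream of the start it was at 2 of the 20 family genes with an optimal peak (10%) and at 1 of the 50 without one (2.0%). At the 53 optimal summits of cytosolic ribosomal protein genes it was found once (1.89%). The members' summits had a median GC content of 38.1% over 201 bp, against 40.3% at all optimal summits and 32.8% in start windows.

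Among large-subunit genes, mrpl-28, a homologue of a bacterial large-subunit protein, carried the strongest peak of the family. Its signal was 246.4 in the pooled list (rank 66), 153.4 in replicate 1 (rank 61) and 98.5 in replicate 2 (rank 75), with the summit 94 bp upstream of the start. No other protein-coding start had this summit in its window, so the peak is attached to mrpl-28 alone, and both replicates placed it near the top.

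The peak of mrpl-12, which encodes the stalk protein that in bacteria contacts the translation factors, had a signal of 150.7 (rank 227), 86.1 in replicate 1 (rank 263) and 66.7 in replicate 2 (rank 199). Its summit was 503 bp upstream of mrpl-12 but only 230 bp upstream of Y39A1A.22 and 236 bp upstream of Y39A1A.21, on the opposite strand. The peak of mrpl-55 had a signal of 141.7 (rank 264), 88.6 in replicate 1 (rank 246) and 55.6 in replicate 2 (rank 291), 118 bp upstream. These 2 peaks stood at closely similar ranks in both replicates.

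The peak of mrpl-49, a subunit added in mitochondrial evolution, had a signal of 124.6 (rank 329), 66.4 in replicate 1 (rank 447) and 58.2 in replicate 2 (rank 261). It lay 141 bp upstream of mrpl-49 and 378 bp upstream of rpl-28, a cytosolic ribosomal protein gene on the opposite strand, so a single peak stood between genes of both kinds of ribosome. The peak of mrpl-45, whose mammalian counterpart sits at the exit of the peptide tunnel beside the inner membrane, had a signal of 117.7 (rank 373), 80.8 in replicate 1 (rank 305) and 40.5 in replicate 2 (rank 540). Its summit was 331 bp upstream of mrpl-45 and 207 bp upstream of Y119D3B.12.

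Of the middle-ranked large-subunit peaks, that of mrpl-15 had a signal of 97.6 (rank 533), 40.4 in replicate 1 (rank 1051) and 57.7 in replicate 2 (rank 266), 602 bp upstream, with no other protein-coding start in reach. That of mrpl-40 had 95.0 (rank 565), 48.6 in replicate 1 (rank 782) and 47.0 in replicate 2 (rank 419), and lay 148 bp from mrpl-40 but 30 bp from F54C4.4 on the opposite strand. That of mrpl-48 had 93.8 (rank 580), 67.8 in replicate 1 (rank 430) and 33.9 in replicate 2 (rank 764), 1168 bp upstream of mrpl-48 and 162 bp upstream of vps-37, an ESCRT gene that precedes it on the same strand. For mrpl-40 and mrpl-48 the neighbour was the nearer start. That of mrpl-18 had 85.2 (rank 677), 48.7 in replicate 1 (rank 778) and 32.8 in replicate 2 (rank 815), 215 bp upstream and 171 bp from the opposite start of C14B9.8.

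The weakest large-subunit peaks were nearer the end of the optimal list. At mrpl-17 the signal was 68.2 (rank 958), 43.0 in replicate 1 (rank 947) and 23.1 in replicate 2 (rank 1548), 215 bp upstream and 207 bp from vbh-1, an RNA helicase gene on the opposite strand. At mrpl-47, whose protein is a homologue of bacterial L29, it was 65.5 (rank 1016), 31.5 in replicate 1 (rank 1625) and 40.3 in replicate 2 (rank 549), 15 bp upstream, the summit nearest to its start in the family. At mrpl-20 it was 64.6 (rank 1035), 32.9 in replicate 1 (rank 1490) and 34.4 in replicate 2 (rank 737), 154 bp upstream with no other protein-coding start. All 3 missed the strongest 1488 regions of a replicate, mrpl-17 in replicate 2 and the others in replicate 1. At mrpl-23, a tunnel-exit protein in bacteria, the signal was 54.0 (rank 1322), 32.4 in replicate 1 (rank 1543) and 19.98 in replicate 2 (rank 2017). This summit was 1014 bp upstream, in an intron of the preceding gene fars-1 and 75 bp from the snoRNA gene T08B2.13.

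Among small-subunit genes, mrps-7, a homologue of the bacterial protein that organises the head of the small subunit, carried the strongest peak. Its signal was 175.0 (rank 161), 131.0 in replicate 1 (rank 91) and 50.8 in replicate 2 (rank 362), 164 bp upstream, with Y57G11C.3 starting 307 bp from the summit on the opposite strand. The peak of mrps-21 had 114.7 (rank 400), 79.2 in replicate 1 (rank 320) and 36.3 in replicate 2 (rank 671), 1007 bp upstream of mrps-21. F29B9.11, which precedes mrps-21 on the same strand, was the nearest start to it, 323 bp away, and jmjd-1.2, a histone demethylase gene on the opposite strand, started 467 bp away.

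The peak of mrps-16 had 73.2 (rank 862), 42.3 in replicate 1 (rank 980) and 27.0 in replicate 2 (rank 1149), 212 bp upstream. These 3 peaks, of mrps-7, mrps-21 and mrps-16, were the small-subunit peaks among the strongest 1488 regions of both replicates. At mrps-35 the signal was 61.4 (rank 1110), 21.6 in replicate 1 (rank 3676) and 42.0 in replicate 2 (rank 516), 156 bp upstream, inside an untranslated exon stretch of sws-1 on the opposite strand. At mrps-28 it was 52.4 (rank 1387), 17.3 in replicate 1 (rank 7129) and 32.9 in replicate 2 (rank 803), 1000 bp upstream, in an intron of Y43F8C.7 and 52 bp from the snoRNA gene Y43F8C.22. The peaks of mrps-35 and mrps-28 were thus high in replicate 2 and low in replicate 1.

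The reverse held for the last 2 small-subunit peaks. At mrps-25 the signal was 51.5 (rank 1423), 33.9 in replicate 1 (rank 1407) and 12.7 in replicate 2 (rank 6376), 226 bp upstream. At mrps-31 it was 50.5 (rank 1470), 34.4 in replicate 1 (rank 1373) and 12.8 in replicate 2 (rank 6206), 108 bp upstream. Just outside the optimal list stood mrps-6 (signal 47.1, rank 1649) and mrps-17 (45.1, rank 1756). The mrps-6 summit lay 394 bp upstream, and rpn-8 also starts in that window, 545 bp upstream of mrps-6.

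**Figure D1:**
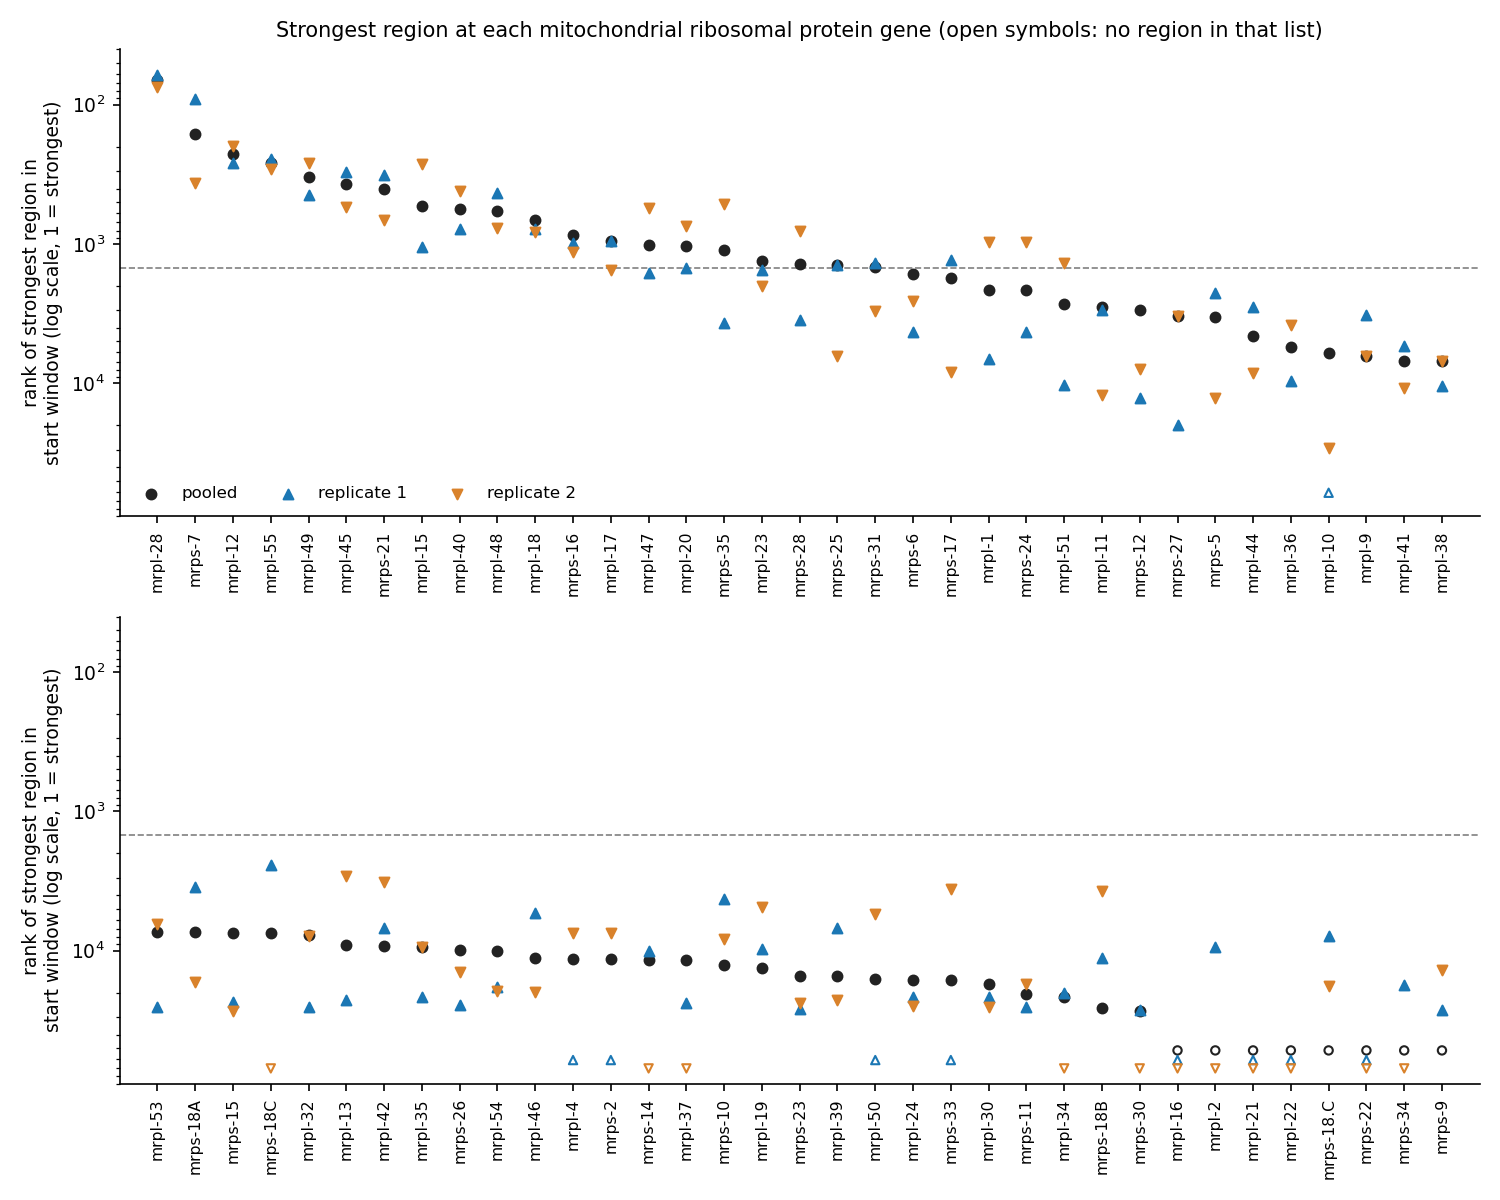
Rank of the strongest region in the start window of each of the 70 genes (x axis, ordered by pooled rank over both panels) in the pooled list (circles), replicate 1 (upward triangles) and replicate 2 (downward triangles), on a log y axis with the strongest at the top; open symbols at the bottom mean no region in that list, and the dashed line is rank 1488. The 20 genes with an optimal peak run from rank 66 (mrpl-28) to 1470 (mrps-31), and the 2 replicates lie farther apart toward the weaker end. The strongest region of a gene can be a different one in each list.

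As a set, the 20 summits were all upstream of the gene start and belonged to 20 distinct peaks. Their median position was 213.5 bp upstream (quartiles 146 and 528 bp), against 289 bp upstream (145 and 848 bp) for the strongest peak of all 1653 protein-coding genes with one. Of the 20, 14 lay within 500 bp upstream (70.0%, against 61.4%). Their median pooled signal was 89.5, against 87.4 for all genes with a peak, so the family's peaks were of ordinary strength for the optimal set. The median was 95.0 for the 13 large-subunit peaks and 61.4 for the 7 small-subunit peaks, with ranges of 54.0 to 246.4 and 50.5 to 175.0 that overlap. Intergenic sequence held 17 of the 20 summits, introns held 2 and an untranslated exon stretch held 1.

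**Figure D2:**
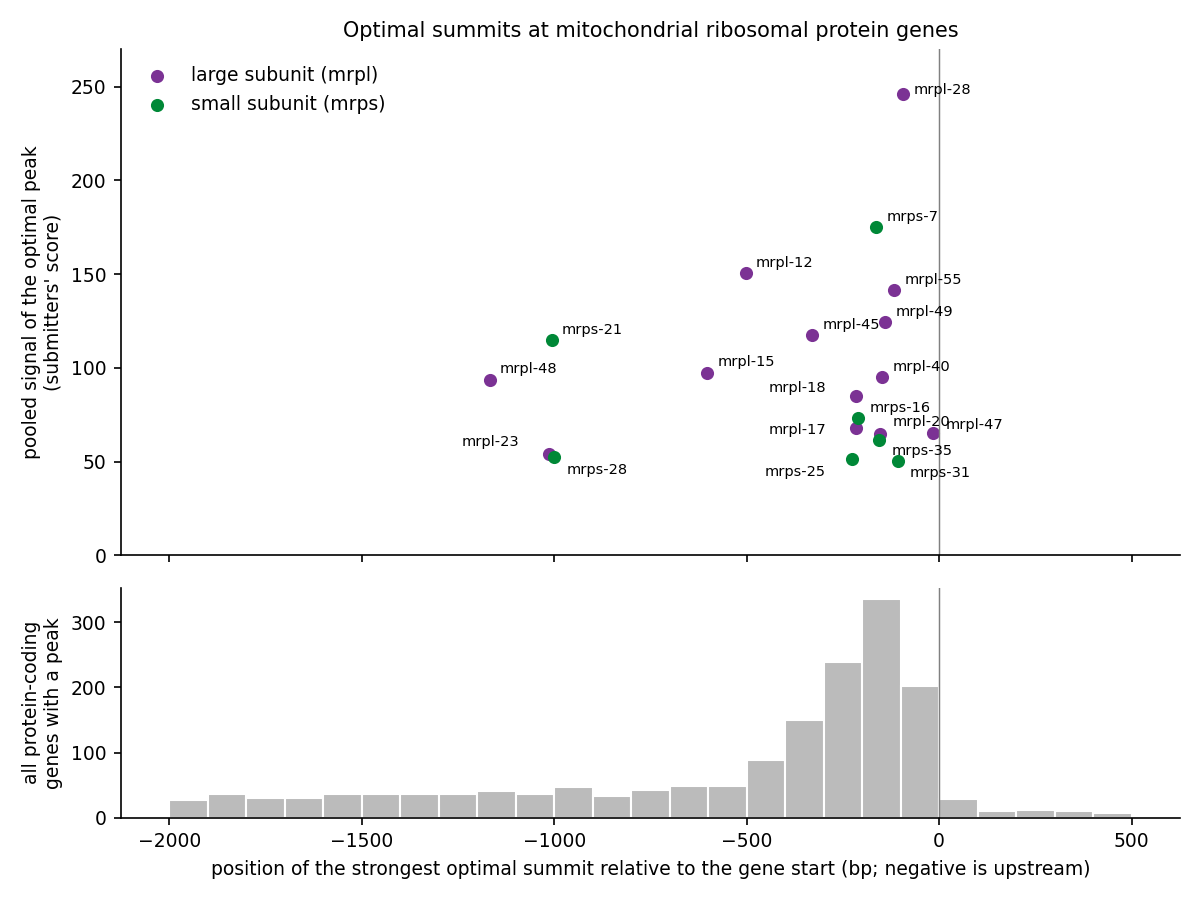
Upper panel, pooled signal of the optimal peak (y axis, submitters' score) against the position of its summit relative to the gene start (x axis, bp) for the 20 family genes with a peak, coloured by subunit; lower panel, number of all protein-coding genes with a peak by position of their strongest summit, in bins of 100 bp. Most family summits sit just upstream of the start, and mrps-21, mrps-28, mrpl-23 and mrpl-48 form a distant set from 1000 to 1168 bp upstream.

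At 15 of the 20 peaks (75%, against 69.4% over all genes with a peak) the summit also lay in the window of another protein-coding start. Among the starts whose window held the summit, the family gene was the nearest at 13 (65.0%, against 61.0%). With only the nearest start counted, 13 of 70 genes had a peak (18.6%), against 5.14% of all protein-coding genes. Those left out were mrpl-12, mrpl-17, mrpl-18, mrpl-40, mrpl-45, mrpl-48 and mrps-21. Some shared peaks were given above without all of the starts that share them. These are Y55F3AM.13 (353 bp from the summit) and dcap-1 (1872 bp) at mrps-25, and ilcr-2 (1085 bp) at mrps-16. They are also let-363 (1475 bp) at mrpl-47, dpm-1 (1810 bp) at mrpl-55, and ech-1.2 (1744 bp) and T08B2.15 (1766 bp) at mrpl-23. Further starts were attf-3 (1027 bp) at mrpl-40, Y54E10A.6 (1090 bp) at mrpl-17 and R11D1.10 (1030 bp) at mrpl-49. At mrps-7 they were vti-1 (1229 bp) and Y57G11C.43 (1547 bp). The summit at mrps-35 was 329 bp downstream of the sws-1 start. The 5 peaks with no other protein-coding start in reach were those of mrpl-28, mrpl-15, mrpl-20, mrps-28 and mrps-31. Crowding was common around the family: 41 of 70 genes (58.6%) had another start inside their own window, against 39.8% of all genes. Among those 41, 12 had a peak (29.3%, against 14.0% of all genes with such a neighbour), and among the 29 without a neighbour, 8 had one (27.6%, against 4.47%). The family's share was close with and without a neighbouring start, while the share of all genes was lower without one.

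Replicates were compared on the 1488 strongest regions of each list, as many as there are optimal peaks. Replicate 1 alone gave 16 of 70 genes (22.9%, against 8.03% of all protein-coding genes) and replicate 2 alone gave 19 (27.1%, against 7.96%). A region in both replicates was found at 12 genes (17.1%, against 6.02%), and these were 9 large-subunit and 3 small-subunit genes. All 20 optimal peaks overlapped a region in each replicate list, at a median rank of 864.5 in replicate 1 (61 to 7129) and 610 in replicate 2 (75 to 6376). Of them, 12 (60%) overlapped one of the strongest 1488 regions in both replicates, against 67.4% of all optimal peaks. Over the 54 family genes with a region in both replicate lists, the best ranks had a Spearman rho of 0.72. Each rank is that of the replicate's own strongest summit in the window, so the 2 regions can differ. At mrpl-41 they lay 29 bp upstream in replicate 1 and 1599 bp upstream in replicate 2. The 54 include the 20 genes with a reproducible peak, so rho does not measure agreement at the same sites. These genes share their 2 libraries, and a few share a region.

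**Figure D3:**
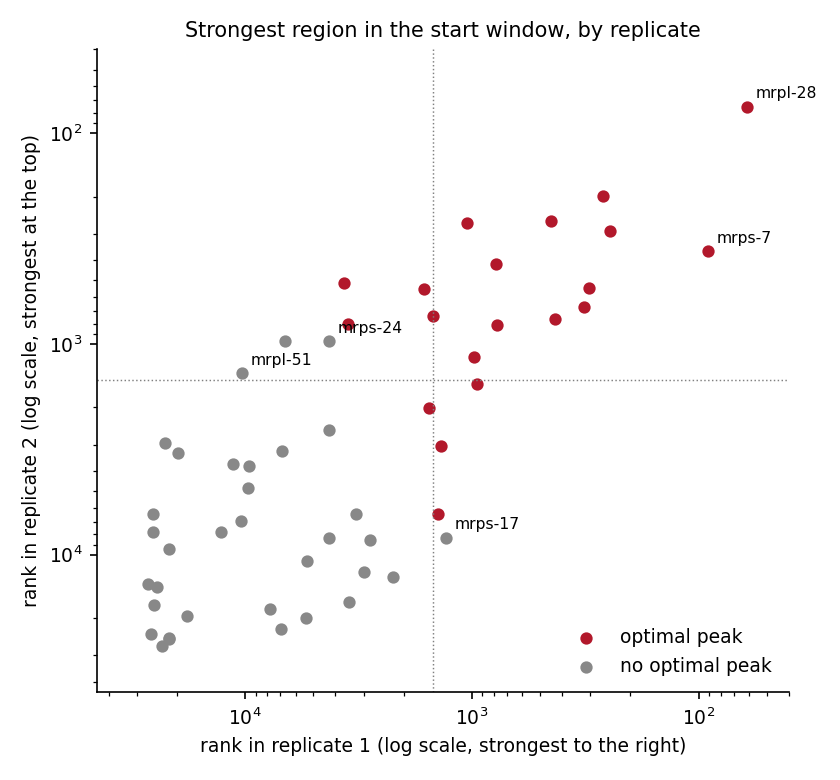
Rank of the strongest region in the start window in replicate 2 (y axis) against replicate 1 (x axis), both on log axes with the strongest at the upper right, for the 54 family genes with a region in both lists; red points have an optimal peak, and dotted lines are rank 1488. The genes mrpl-28 and mrps-7 are high in both, while of the genes without an optimal peak mrps-17 passes the line in replicate 1 only, and mrpl-1, mrpl-51 and mrps-24 pass it in replicate 2 only. The strongest region of a gene can be a different one in each replicate.

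Below the optimal cutoff the family went on being found more often than genes at large. A pooled region up to rank 3000 was in the window of 27 genes (38.6%, against 13.5%), up to rank 5000 of 30 (42.9%, against 18.0%) and up to rank 10000 of 44 (62.9%, against 27.1%). The whole pooled list reached 62 of 70 (88.6%, against 54.9%). Many of these regions are weak, since each list was cut at 30000 whatever its signal. The 42 genes with a pooled region but no optimal peak had signals of 14.2 to 47.1, with a median of 22.7. The best pooled region of all protein-coding genes with one, optimal peaks included, had a median signal of 21.8.

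**Figure D4:**
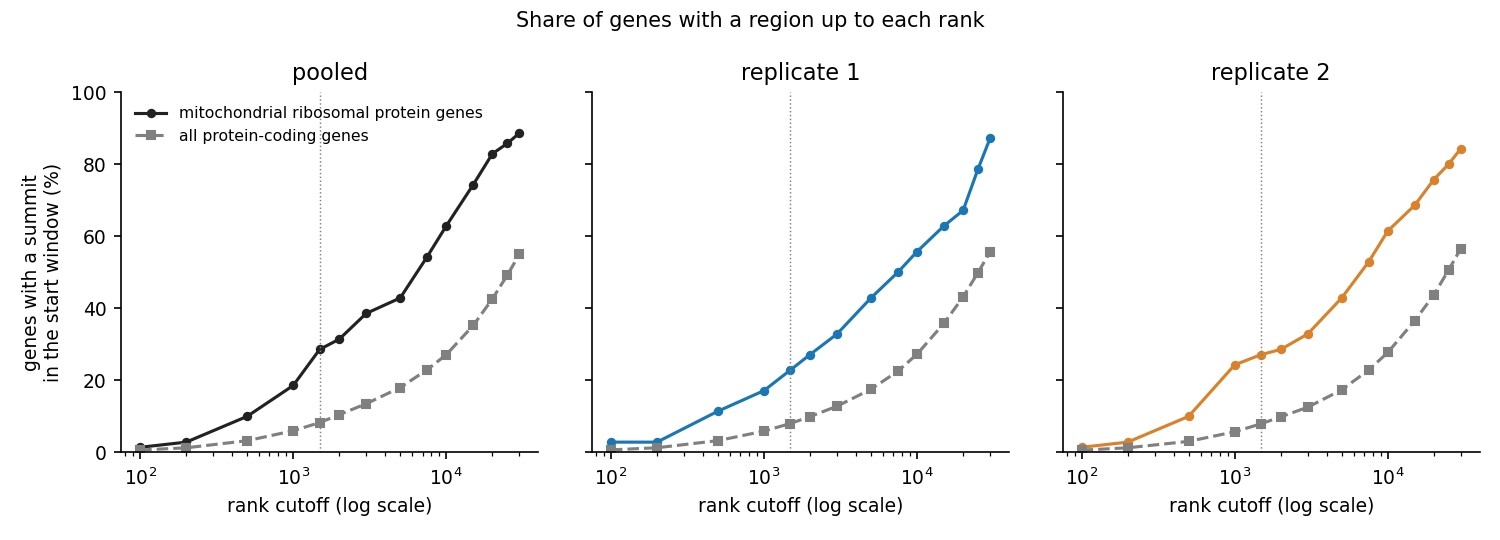
Share of genes (y axis, percent) with a summit in the start window up to each rank (x axis, log scale), for the 70 mitochondrial ribosomal protein genes (solid lines) and all 19973 protein-coding genes (dashed lines), in the pooled list, replicate 1 and replicate 2; the dotted line is rank 1488. The family line is above the line of all genes at every rank plotted in all 3 lists, with 62 of 70 genes reached in the whole pooled list.

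Among the genes with only weaker regions, some stood near the cutoff in a single replicate. The divergent pair mrpl-1, homologue of the bacterial stalk protein L1, and mrps-24 shared a region with a pooled signal of 40.3 (rank 2129). It lay between their starts, 204 bp upstream of mrpl-1 and 140 bp upstream of mrps-24. The start of emc-6 lies 35 bp upstream of mrpl-1 on the same strand. The summit is therefore in the emc-6 window too, and nearer to emc-6 than to mrpl-1. The shared region had rank 973 in replicate 2. In replicate 1 the best region of mrpl-1, 203 bp upstream, was ranked 6646. That of mrps-24 in replicate 1 was a different region, 1122 bp upstream, and was ranked 4276. The best region of mrpl-51 was ranked 1376 in replicate 2 and 10309 in replicate 1. For mrps-17 it was the other way round, with rank 1295 in replicate 1 and 8291 in replicate 2. In the pooled list mrps-17 had its summit 58 bp upstream of the start.

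Further down came genes of known functional centres. The factor-binding stalk genes mrpl-11 and mrpl-10 had best pooled ranks of 2812 and 6089, and of mrpl-10, mrpl-11 and mrpl-12 only mrpl-12 had an optimal peak. The decoding-centre gene mrps-12 was at 2958. The gene mrps-5, whose knockdown is known to extend worm lifespan, was at 3325 (signal 32.6, 292 bp downstream of the start). At mrps-5 the best region of replicate 1 had rank 2239, 316 bp downstream of the start. That of replicate 2 was a different region, with rank 12793 and 475 bp upstream. The genes placed around the peptide tunnel exit are named here only in part. Of those named, mrpl-45, mrpl-47 and mrpl-23 had the optimal peaks described above, at ranks 373, 1016 and 1322. The best pooled rank of mrpl-24 was 16208, and mrpl-22 had no region.

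The rest fell between ranks 3268 and 27089. Those before rank 10000, besides the ones named, were mrps-27 (3268), mrpl-44 (4544), mrpl-36 (5451), mrpl-9 (6400), mrpl-41 (6905), mrpl-38 (6941), mrpl-53 (7363), mrps-18A (7388), mrps-15 (7479), mrps-18C (7522), mrpl-32 (7732), mrpl-13 (9067), mrpl-42 (9331), mrpl-35 (9386) and mrps-26 (9851). Beyond rank 10000 were mrpl-54 (10032), mrpl-46 (11226), mrpl-4 and mrps-2 (a shared region, 11487), mrps-14 (11652), mrpl-37 (11703), mrps-10 (12634), mrpl-19 (13403), mrps-23 (15147), mrpl-39 (15196), mrpl-50 (15916), mrps-33 (16295), mrpl-30 (17487), mrps-11 (20593), mrpl-34 (21607), mrps-18B (25855) and mrps-30 (27089). In the replicate lists alone, mrps-18.C and mrps-9 had regions in both, and mrpl-2 and mrps-34 had regions in replicate 1 only. No list had a region at mrpl-16, mrpl-21, mrpl-22 or mrps-22.

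Many of the genes without a peak stood behind another gene on the same strand. Chains were traced by joining same-strand neighbours separated by at most 500 bp with no other protein-coding gene between them; this is a rule of spacing and not an operon annotation. It placed 29 of the 70 genes (41.4%) downstream in a chain, against 20.7% of all protein-coding genes. Overlapping same-strand genes were joined as well. Of the 29, mrpl-44 starts at the same base as mccc-2, counted as the first gene of its chain, so it does not stand behind it. The start of mrpl-1 is only 35 bp from that of emc-6, the first gene of its chain. The best pooled region of both mrpl-1 and emc-6 was at rank 2129. Of the 41 genes that were first or alone, 17 had an optimal peak at their own start (41.5%, against 8.27% of all such genes). Of the 29 downstream genes, 3 had a peak at their own start (10.3%, against 8.32%), and 13 had a peak at the start of the first gene of the chain (44.8%, against 15.9%). These 13 shared 12 chain starts. With a peak at the own start or the chain start counted, 31 of 70 genes were reached (44.3%, against 10.6% of all genes).

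The chain-start peaks belonged to genes of varied function. The strongest was at rpn-3, a proteasome lid gene, with a signal of 226.6 (rank 78, 175 bp upstream), and mrpl-32 follows in its chain, 2404 bp from the rpn-3 start. The start of clsp-1 ahead of mrpl-54 had a signal of 194.1 (rank 118), and that of misc-1, a mitochondrial carrier gene ahead of mrpl-41, had 165.5 (rank 181). The start of natc-1, ahead of both mrps-2 and mrpl-4, had 116.3 (rank 383, 83 bp upstream). At all 5 of these family genes the best region at the own start was at rank 6905 or weaker.

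The other chain starts with an optimal peak were W04D2.4 ahead of mrps-11 (signal 135.8), F21D5.7 ahead of mrps-33 (128.3), F29B9.11 ahead of mrps-21 (114.7), tag-124 ahead of mrpl-53 (95.1), vps-37 ahead of mrpl-48 (93.8), nrde-2 ahead of mrps-14 (75.2), W04B5.5 ahead of mrpl-30 (69.95) and atp-2, an ATP synthase subunit gene ahead of mrps-26 (50.5). At F29B9.11 and vps-37 the peak is the one already counted for the family gene. The remaining 16 downstream genes had no optimal peak at the chain start, and among them mrpl-23 had one at its own start.

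**Figure D5:**
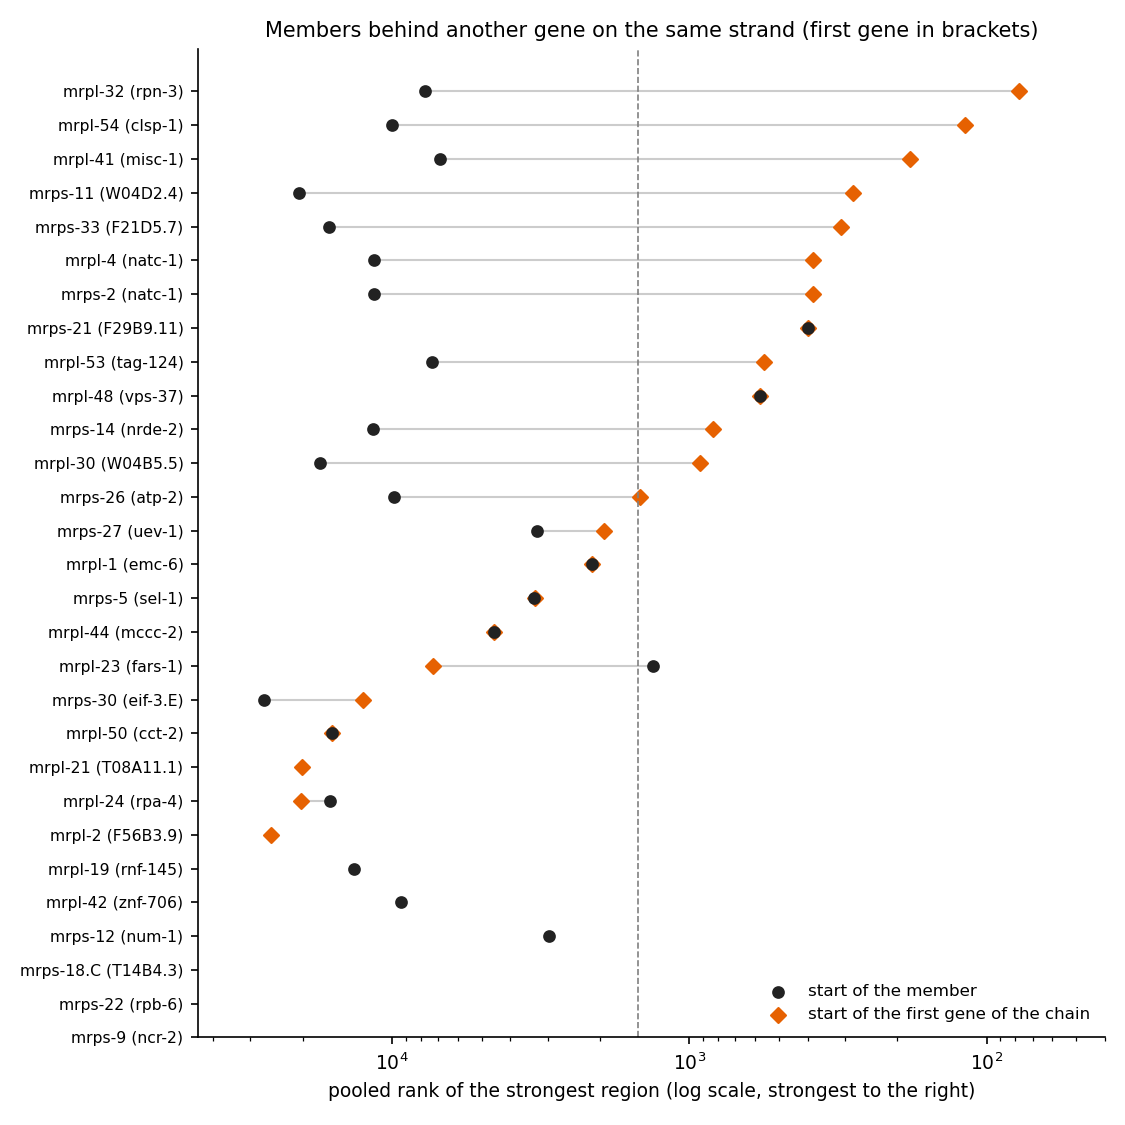
Pooled rank (x axis, log scale, strongest to the right) of the strongest region at the start of each of the 29 family genes downstream in a chain (black circles) and at the start of the first gene of its chain (orange diamonds, gene in brackets); grey lines join the 2, a missing symbol means no pooled region, and the dashed line is rank 1488. Of the 29, 13 have a diamond right of the line, and 11 of these have their own circle left of it.

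By chromosome, peaks were at 4 of 15 family genes on chromosome I, 3 of 12 on II, 5 of 22 on III, 4 of 11 on IV and 4 of 10 on V. No member of the family lies on X, where 4.76% of all genes had a peak, against 11.8% on I, 8.0% on II, 12.9% on III, 8.53% on IV and 5.75% on V. The family's share thus comes from autosomal genes alone.

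Other genes of mitochondrial gene expression were counted for comparison. The list also held genes of other mitochondrial functions, the prohibitins phb-1 and phb-2 and the proteases lonp-1, spg-7 and ymel-1. It held dap-3 as well, which encodes a mitochondrial small-subunit protein but falls outside the symbol rule of the family. Of its 41 symbols, 29 matched a protein-coding gene. Of these 29, 6 had an optimal peak by the same window rule (20.7%, against 28.6% of the family as reported above). With only the nearest start counted, 2 of the 29 had one (6.9%), against 13 of 70 in the family (18.6%). The 6 were iars-2 (signal 125.9), ears-2 (96.8), eral-1 (95.1), gfm-1 (73.5), phb-1 (65.5) and tufm-2 (59.8). The first pair encode aminoacyl-tRNA synthetases, eral-1 a GTPase of small-subunit assembly, gfm-1 and tufm-2 elongation factors, and phb-1 a prohibitin. All 6 peaks had another protein-coding start in reach, and the eral-1 peak is the one at the start of tag-124, ahead of mrpl-53. Among 81 cytosolic ribosomal protein genes, 56 had a peak (69.1%), or 33 (40.7%) with only the nearest start counted, led by rpl-3 (452.9) and rpl-20 (451.6). Differences between these lists were not tested.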

How the data were processed

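LIN-39-eGFP ChIP-seq regions of 2 replicates of L1 larvae were used on ce11. The submitters' notes trace each list to alignments of the replicates and of a control. How reads were aligned, which program called regions and where the optimal list was cut is not stated in those notes. Each file follows the narrowPeak layout without a header. The deposited signal of a region is the authors' score, whose scale was not given. The deposited −log10 q of a region reaches at most 3.51 in the pooled list, the value of every optimal peak, and was not used to rank. The deposited summit offset placed each summit. The ce10 lists, alignments and signal tracks were not used here.

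From these lists, every start of a protein-coding gene (the outer end of the gene, Ensembl release 115) with a summit 2000 bp upstream to 500 bp downstream was counted, and ranks were taken within each list. Values for an optimal peak in a replicate come from the strongest overlapping region, by at least 1 bp; values for other genes come from the strongest summit in the window. Short sequences were sought on both strands of the RefSeq copy of WBcel235. Python 3.11.15, numpy 2.4.6, pandas 2.3.3 and scipy 1.17.1 were used, and the window search was tested on simulated data. The members, lists, chain rule and sequences searched were chosen with earlier results of these data known. Every member was named, and full values were given for the 20 members with the strongest optimal peaks. Alternatives were other windows, start definitions, overlap in place of summit, a stricter peak cutoff, single replicates, chain gaps and motif windows.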

Additional observations from a re-analysis of the deposited data

How the results depend on the processing

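The family's share stayed above that of all protein-coding genes under each alternative tried, from 2.85 times (replicate 1 alone) to 3.65 times (1000 bp upstream). The count of 20 genes fell to 13 with only the nearest start counted and to 11 in the 744 strongest optimal peaks, and single replicates gave 16 to 19. It was 14 with 500 bp upstream, 17 with 1000 bp and 30 with 5000 bp. Transcript starts, or any base of the peak in the window, gave 20. The 13 large-subunit genes became 7 with the nearest start only (10 to 13 in single replicates). The 7 small-subunit genes became 11 with 5000 bp upstream and 2 in the 744 strongest peaks (6 in each single replicate). Replicate 1 alone kept 15 of the 20 genes and replicate 2 alone kept 16. Replicate 1 alone added 1 gene and replicate 2 alone added 3. The cause of these changes was not tested. Downstream members with a peak at their chain start numbered 11 at a gap of 200 bp and 14 at 1000 bp, against 13 at 500 bp. CCGCAAA was at 20% within 50 bp and 35% within 200 bp. With 2 replicates and no read numbers, sequencing error could not be estimated. No paired analysis was possible because the design has 1 group.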
